A study of Mus musculus with 6 samples.

Results

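The 4 adult globin transcripts of the mouse, Hba-a1 and Hba-a2 for the alpha chain and Hbb-bs and Hbb-bt for the beta chain, were followed liver by liver in a bulk RNA-seq study of gigantol. They are 4 of the 332 genes in the table analysed here and were taken by symbol. All 332 rows had been selected on the comparison of gigantol with vehicle in these same 6 livers, since in the authors' deposited table none has an unadjusted p above 0.0499 or a change smaller than 1.00 on the log2 scale. The difference between the groups therefore chose the members, and their levels are given as a description with no test. The livers came from male mice of the Kunming stock, an outbred stock, aged 6 to 8 weeks and weighing 20 to 28 g. In the treated group, 3 mice received gigantol, a bibenzyl of Dendrobium orchids that the series title calls a dual PPAR agonist, by mouth at 10 mg/kg. In the control group, 3 mice received the same volume of vehicle. All livers were taken 4 h after dosing, and they share 1 batch label. The titles of the libraries carry the name of a human pancreatic tumour line (PANC1-OE for gigantol and PANC1-Vector for vehicle), although organism, tissue and gene IDs are those of mouse liver. The groups used here are those of the treatment labels.

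Adult haemoglobin is a tetramer of paired alpha and beta chains, each carrying a haem group that binds oxygen. Its mRNAs are made in red cell precursors and persist in reticulocytes, the young red cells that still hold RNA, until these mature in the circulation. Blood held in the vessels is a usual source of globin mRNA in adult liver. The sources used here do not say whether the livers were perfused. In bulk tissue, fewer cells of a type and less RNA per cell cannot be told apart.

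Each chain is encoded by a pair of copies that differ very little, which bears on every value for a single copy. The table places Hba-a1 (ENSMUSG00000069919) on the plus strand of chromosome 11 from 32233511 to 32234465 and Hba-a2 (ENSMUSG00000069917) on the same strand from 32246489 to 32247298. Hbb-bs (ENSMUSG00000052305) lies on the minus strand of chromosome 7 from 103475741 to 103477303 and Hbb-bt (ENSMUSG00000073940) on the same strand from 103461731 to 103463203. The sources used here do not name the mouse build of these positions. All 4 IDs matched the GENCODE M21 annotation of GRCm38, where the genes have 3 exons each and the same span lengths as in the table (955, 810, 1563 and 1473 bases) but other positions. In that reference the coding sequences of Hba-a1 and Hba-a2 (429 bases with the stop codon) differ at 1 base, C381T, and those of Hbb-bs and Hbb-bt (444 bases) at 1 base, C417T. Positions are counted from 1 at the A of the start codon, with the base of Hba-a1 or Hbb-bs first. Neither change alters a residue, so in the reference the members of a pair encode the same protein, of 142 residues for alpha and 147 for beta. The mice here are of an outbred stock, and whether their alleles match the reference was not tested. The stretches around these bases, all in the last coding exon, are written 5′ to 3′ on the coding strand. They are shown because they hold the only coding difference in the reference by which a read could be told apart. The capital is the base that differs.
Hba-a1, chr11:32284329-32284357 (GRCm38, plus strand): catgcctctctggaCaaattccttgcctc
Hba-a2, chr11:32297146-32297174 (GRCm38, plus strand): catgcctctctggaTaaattccttgcctc
Hbb-bs, chr7:103826678-103826706 (GRCm38, minus strand): gtggctggagtggcCgctgccctggctca
Hbb-bt, chr7:103812669-103812697 (GRCm38, minus strand): gtggctggagtggcTgctgccctggctca

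Whole transcripts, coding sequence included, also share long stretches between copies. Of the windows of 100 bases in the main GENCODE transcript of Hba-a2 (554 bases), 74.5% occur unchanged in that of Hba-a1 (699 bases). For windows of 100 bases from Hba-a1 the share that occurs in Hba-a2 was 56.5%, for Hbb-bs (628 bases) in Hbb-bt it was 62.6%, and for Hbb-bt (703 bases) in Hbb-bs it was 54.8%. The sources used here give neither the read length nor how reads that fit several places were counted, so the division of reads within a pair is uncertain in every library. If such reads were shared out between the copies, the sum of a pair would keep them all, but if they were dropped or counted at both copies, the sums and the alpha to beta ratio would change too, and this was not tested. Alpha and beta are distant relatives, with 56.7% of aligned coding positions the same between Hba-a1 and Hbb-bs.

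The libraries held close to 21200000 to 24600000 reads in the gigantol group and 23100000 to 26700000 in the vehicle group, worked out from the CPM, a read count scaled to the total of its library, that 1 read is worth. All 4 globins passed a level filter of at least 1 CPM in at least 3 libraries, as did 201 of the 332 rows. Their lowest value, 24.8 CPM for Hbb-bt in gigantol replicate 1, was about 527 reads, so counting error was small beside the differences between livers. Of 12 hepatocyte markers listed for a check of the tissue 0 were analysed here, but Hamp, the iron hormone gene that hepatocytes transcribe, stood at 88.7 to 514 CPM in the 6 livers.

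Alpha globin from Hba-a1 read 137, 298 and 230 CPM in gigantol replicates 1, 2 and 3 and 149, 800.0 and 531 CPM in vehicle replicates 1, 2 and 3. Vehicle replicates 2 and 3 were the highest livers, while vehicle replicate 1 lay inside the gigantol range, so the groups overlapped. The group means were 221 ± 80.8 CPM with gigantol and 493 ± 327 CPM with vehicle (SD, n = 3 each), a vehicle mean 2.23 times the gigantol mean. The limma log2(CPM + 1) difference, gigantol minus vehicle, was −0.92 ± 0.66 (SE).

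Hba-a2, the second alpha gene, read 26.4, 44.0 and 46.3 CPM in the gigantol livers and 120, 134 and 69.9 CPM in the vehicle livers, each in the order of replicates 1 to 3. Here all 3 gigantol livers lay below all 3 vehicle livers, and vehicle replicate 1 was the second highest liver. Means were 38.9 ± 10.9 CPM with gigantol and 108 ± 33.8 CPM with vehicle (SD, n = 3 each), a ratio of 2.78, and the limma log2 difference was −1.44 ± 0.50 (SE). Hba-a2 was the 1 member of 4 whose groups did not overlap, where 48.5% of all 332 rows had every gigantol liver below every vehicle liver. It was also the 1 member of 4 with an FDR under 0.05 in the authors' deposited table (0.000966), against 15.7% of the rows that passed on the lower side and 25.9% on either side. The other FDRs of the authors' deposited table were 0.196 for Hbb-bs, 0.257 for Hbb-bt and 0.491 for Hba-a1.

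Of the beta genes, Hbb-bs read 159, 244 and 252 CPM in gigantol replicates 1 to 3 and 242, 834 and 427 CPM in vehicle replicates 1 to 3. Vehicle replicate 1 stood just below gigantol replicates 2 and 3, so the groups overlapped by a narrow margin. The means were 218 ± 51.5 and 501 ± 303 CPM (SD, n = 3 each), the vehicle mean being 2.30 times the gigantol mean, with a limma log2 difference of −1.05 ± 0.57 (SE).

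Hbb-bt, the minor beta copy, read 24.8, 46.9 and 43.0 CPM in the gigantol livers and 40.4, 140 and 79.7 CPM in the vehicle livers. The livers fell in nearly the order they had for Hbb-bs, with gigantol replicate 1 lowest and vehicle replicate 2 highest. Means were 38.3 ± 11.8 and 86.7 ± 50.1 CPM (SD, n = 3 each), a ratio of 2.27, with a limma log2 difference of −1.04 ± 0.55 (SE). The authors' deposited table gave log2 fold changes of −1.15, −1.47, −1.20 and −1.18 for Hba-a1, Hba-a2, Hbb-bs and Hbb-bt, against a median of −1.15 over its 332 rows.

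**Figure D1:**
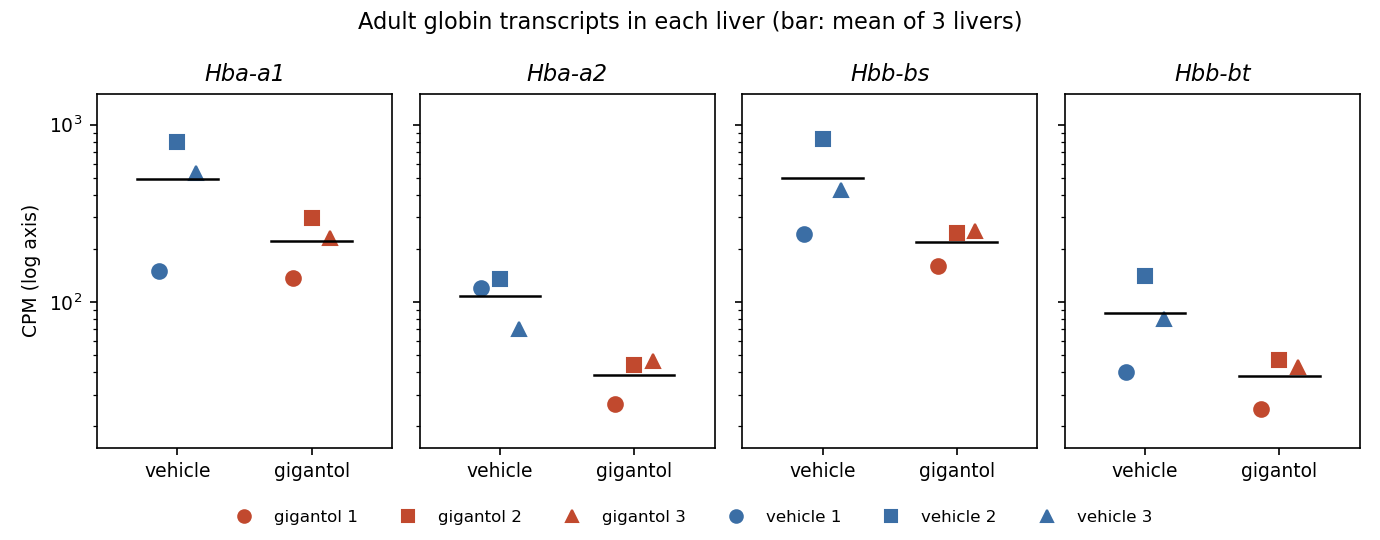
CPM of Hba-a1, Hba-a2, Hbb-bs and Hbb-bt (log axis) in the 3 vehicle and 3 gigantol livers, 1 symbol per liver, with bars at the means of 3 livers. Vehicle replicate 1 (blue circle) sits among the gigantol livers for Hba-a1, Hbb-bs and Hbb-bt and above all of them for Hba-a2 (120 CPM).

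Levels of different genes can be compared only per length. Per kilobase of the main GENCODE transcript, the vehicle livers held 798 ± 482 CPM of Hbb-bs and 706 ± 468 CPM of Hba-a1, which differed by less than their spread. Hba-a2 at 195 ± 61 and Hbb-bt at 123 ± 71.2 CPM per kilobase were the minor copies (SD, n = 3 each), close to their spread from each other. With gigantol the order was the same, at 348 ± 82.0 for Hbb-bs, 317 ± 116 for Hba-a1, 70.2 ± 19.6 for Hba-a2 and 54.4 ± 16.8 CPM per kilobase for Hbb-bt. These lengths depend on the annotation. The GENCODE spans of Hba-a1, Hbb-bs and Hbb-bt take in the promoter stretches printed below, which lie before the starts given by RefSeq. Whether the order of Hba-a1 and Hbb-bs holds with RefSeq lengths was not tested.

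Summed over the 4 genes, globin made up 347, 632 and 571 CPM in gigantol replicates 1 to 3 and 552, 1909 and 1108 CPM in vehicle replicates 1 to 3. Vehicle replicate 1 held less globin RNA than 2 of the 3 gigantol livers, and the other vehicle livers held more than any of them. The means were 517 ± 150 CPM with gigantol and 1189 ± 682 CPM with vehicle (SD, n = 3 each), a ratio of 2.30. That ratio leaned on single vehicle livers. It was 1.61 without vehicle replicate 2 and 2.92 without vehicle replicate 1, and 1.98 without gigantol replicate 1. Without vehicle replicate 1 all 4 members, not Hba-a2 alone, had every gigantol liver below both other vehicle livers, as did 61.4% of the 332 rows, a share worked out after seeing the data. For Hba-a1 the ratio of means was 1.54 without vehicle replicate 2 and 3.01 without vehicle replicate 1, and for Hba-a2 it stayed between 2.39 and 3.27 whichever 1 library was left out. The spread was far wider in the vehicle group, with the highest liver at 3.46 times the lowest against 1.82 times in the gigantol group.

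Alpha and beta kept close to equal CPM in every liver while the total varied. The alpha sum over the beta sum was 0.888, 1.18 and 0.935 in gigantol replicates 1 to 3 and 0.951, 0.959 and 1.18 in vehicle replicates 1 to 3. The ratio thus spanned 1.33-fold over 6 livers in which the globin total spanned 5.50-fold. Group means were 1.00 ± 0.155 with gigantol and 1.03 ± 0.133 with vehicle (SD, n = 3 each), a difference smaller than either spread. Divided by the same GENCODE transcript lengths, the ratio ran from 0.843 to 1.12 over the 6 livers. As these lengths depend on the annotation, this range does not settle which chain had more transcripts, and RefSeq lengths were not tried. Gigantol replicate 2 and vehicle replicate 3 were the alpha-rich livers, 1 in each group.

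**Figure D2:**
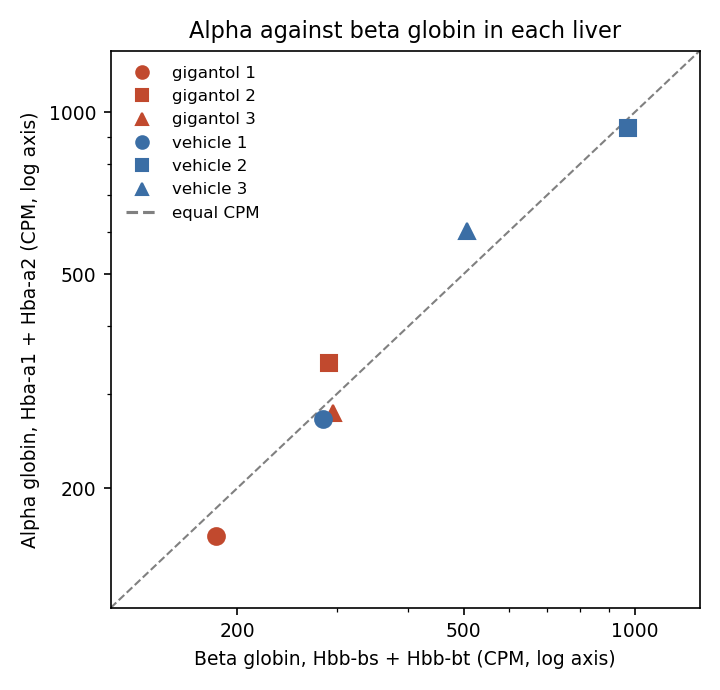
Alpha globin (Hba-a1 plus Hba-a2) against beta globin (Hbb-bs plus Hbb-bt) in each of the 6 livers, both in CPM on log axes, 1 symbol per liver. The livers lie near the dashed line of equal CPM from 347 CPM of total globin in gigantol replicate 1 to 1909 CPM in vehicle replicate 2.

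The pairs divided their reads alike in all livers for beta, and in 5 of 6 for alpha. Hbb-bs took 86.5%, 83.8% and 85.4% of the beta CPM in gigantol replicates 1 to 3 and 85.7%, 85.6% and 84.3% in vehicle replicates 1 to 3. Hba-a1 took 83.8%, 87.1% and 83.2% of the alpha CPM in the gigantol livers and 85.6% and 88.4% in vehicle replicates 2 and 3. In vehicle replicate 1 it took 55.5% (95% Wilson interval 54.4% to 56.7%, from about 7182 alpha reads), an interval that covers counting error only. The mean over the other 5 livers was 85.6% ± 2.16 (SD, n = 5), so this library stood apart from them by many times their spread.

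In vehicle replicate 1 the 2 alpha genes departed from their beta counterparts in opposite directions. Hba-a1 was at 0.616 times Hbb-bs there, against 0.860 to 1.24 times in the other 5 livers. Hba-a2 was at 2.96 times Hbb-bt, against 0.878 to 1.08 times in the others. The alpha sum of that liver was nevertheless 0.951 of its beta sum, inside the range of the rest. With both copies pooled, alpha globin read 269 CPM in vehicle replicate 1, below the 276 and 342 CPM of gigantol replicates 3 and 2, so the groups overlapped for the alpha sum although they did not for Hba-a2. Hba-a2 itself had no overlap with or without vehicle replicate 1, and its ratio of means without that library was 2.63. The sources used here give no genotype of the globin loci.

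**Figure D3:**
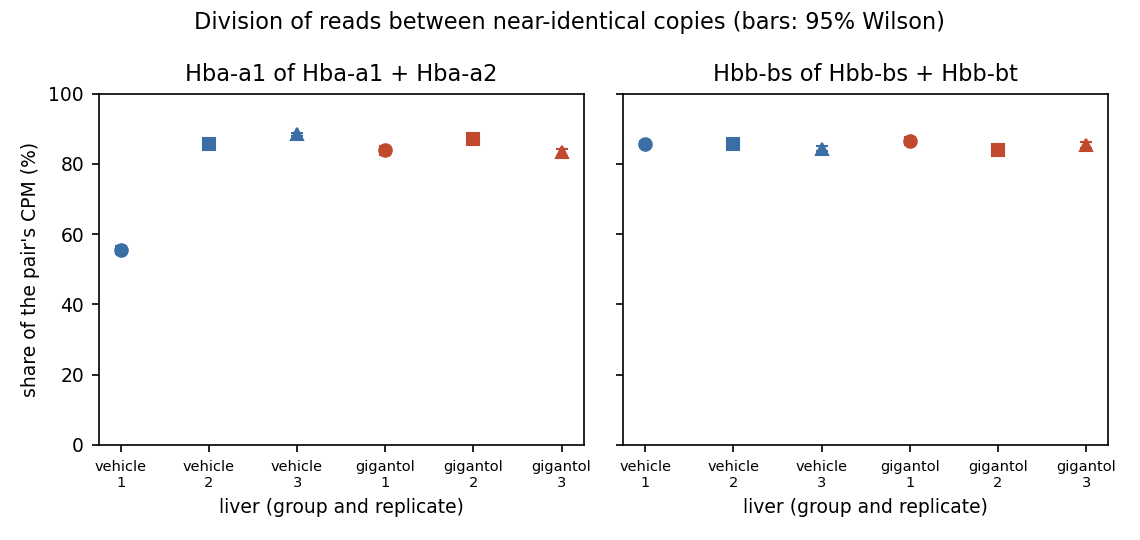
Share of the alpha CPM at Hba-a1 (left) and of the beta CPM at Hbb-bs (right) in each liver, in percent, with 95% Wilson intervals that are mostly narrower than the symbols. The share of Hba-a1 was 55.5% in vehicle replicate 1 and 83.2% to 88.4% in the other livers, and that of Hbb-bs was 83.8% to 86.5% throughout.

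Of 35 genes considered here for the red cell membrane and the assembly of haemoglobin, 1 is reported, Slc4a1, the band 3 anion exchanger of the red cell membrane. It read 1.93, 0.516 and 0.894 CPM in gigantol replicates 1 to 3 and 1.87, 3.17 and 2.13 CPM in vehicle replicates 1 to 3. Gigantol replicate 1 lay just above vehicle replicate 1, so the groups overlapped, and the values rested on about 11 to 81 reads per library. The authors' deposited table gave Slc4a1 an FDR of 0.546. Slc4a1 did not keep one proportion to beta globin. Per 1000 CPM of beta globin it ran from 1.78 CPM in gigantol replicate 2 to 10.5 CPM in gigantol replicate 1, the liver with the least globin.

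No gene of 4 further lists was analysed here: 12 other globin genes, 10 erythroid transcription factors, 13 genes of haem synthesis and 13 of haem and haemoglobin clearance. Of 24 iron genes 2 were analysed here, Hamp and Scara5, both with higher means in the gigantol livers. Hamp, which encodes hepcidin, was at 331 ± 168 against 102 ± 17.4 CPM while Scara5, which encodes a scavenger receptor that takes up ferritin, was at 21.3 ± 4.42 against 8.51 ± 7.77 CPM (SD, n = 3 each). The authors' deposited table gave Hamp an FDR of 0.000702 and Scara5 one of 0.360.

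The markers of other blood cells and of Kupffer cells analysed here also had lower means with gigantol. By the authors' log2 fold changes, 213 of all 332 rows were lower. As all rows were selected on this comparison, these markers do not stand for the rest of their lists. The part of these markers in the globin values was not tested. Of 14 platelet genes 4 were analysed here, and their summed level was 1.59 to 3.16 CPM in the gigantol livers and 6.73 to 13.4 CPM in the vehicle livers. Ppbp, a chemokine stored in platelet granules, was at 0.979 ± 0.461 against 5.61 ± 3.31 CPM (SD, n = 3 each) and had an FDR of 0.000293 by the authors' deposited table. The others were Pf4 (0.862 ± 0.238 against 2.02 ± 0.206 CPM), Alox12 (0.200 ± 0.156 against 0.886 ± 0.0783 CPM) and Nrgn (0.197 ± 0.0804 against 0.567 ± 0.256 CPM), with FDRs of 0.110, 0.107 and 0.588 by the same table. The neutrophil list had 1 of 14 genes, Mpo, the granule peroxidase of myeloid precursors, at 0.0940 to 0.407 CPM with gigantol and 0.391 to 5.06 CPM with vehicle (FDR 0.0479 by the authors' deposited table). The lymphocyte list had 3 of 18, Nkg7, Cd8a and Cd79a, with a summed level of 0.565 to 0.939 CPM with gigantol and 2.00 to 2.27 CPM with vehicle and FDRs of 0.340, 0.448 and 0.576 by the authors' deposited table. In the gigantol livers Alox12, Nrgn, Mpo and the 3 lymphocyte genes each rested on only about 2 to 10 reads per library. The Kupffer and monocyte list had 1 of 17, Marco, a scavenger receptor, at 1.55 to 3.71 CPM with gigantol and 8.21 to 8.89 CPM with vehicle (FDR 0.000107 by the authors' deposited table). Of 12 endothelial markers 0 were analysed here. Vehicle replicate 1, the vehicle liver with the least globin, had the highest Ppbp (9.44 CPM) and Mpo (5.06 CPM) of all 6, so these markers and the globins did not order the vehicle livers alike.

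Genes of the table whose log2(CPM + 1) profile lay near that of the summed globins were found by the root mean square distance over the 6 livers, each profile centred on its own mean. Since all rows were selected on the same livers, near profiles are a description of this table. Hbb-bt lay at 0.0259 and Hbb-bs at 0.0989 from the sum they belong to, Hba-a1 at 0.271, and Hba-a2 at 0.599, which was rank 50 among the 201 profiles. The median distance over 197 other genes was 0.937. Among those with near profiles, 4 are named: Wsb1, a SOCS box protein, at 0.262, the transcript A630031M04Rik at 0.324, Slc25a25, a mitochondrial ATP-Mg carrier, at 0.326, and Tnfsf10, the death ligand TRAIL, at 0.347. Wsb1 read 17.8, 37.8 and 27.9 CPM with gigantol and 34.9, 73.6 and 72.2 CPM with vehicle, again with vehicle replicate 1 inside the gigantol range. With a pseudocount of 0.1 in place of 1, an alternative chosen after seeing the data, Wsb1 and Slc25a25 remained among the nearest 4 of the genes considered.

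**Figure D4:**
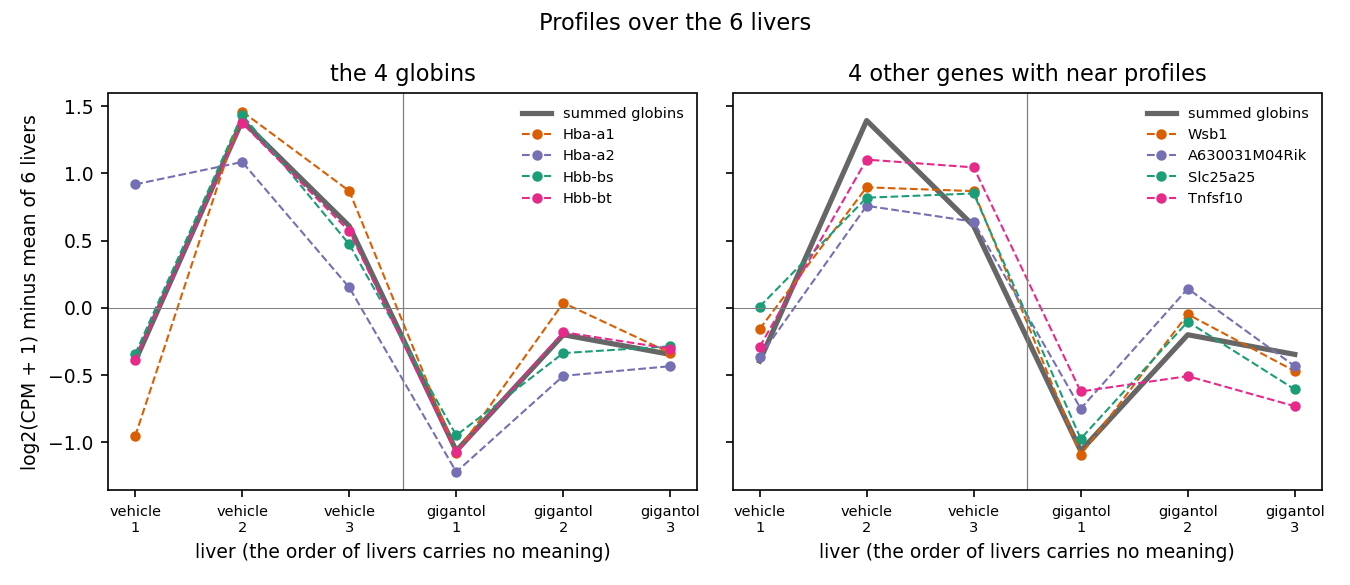
Centred log2(CPM + 1) profiles over the 6 livers for the 4 globins (left) and 4 other genes with near profiles (right), with the summed globins as a thick line in both. At vehicle replicate 1 Hba-a2 lies above the line and Hba-a1 below it. Over all 6 livers Wsb1, at a distance of 0.262, is the closest to the line among the 4 other genes drawn.

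The starts of the 4 genes carry the boxes long described for globin promoters, and are shown as a description of the members. Whether these boxes bear on the globin levels in the livers was not tested. In the RefSeq table of promoters (GRCm38.p6), all 4 members had an entry, and the 250 bases before each start were searched on both strands for 4 motifs. They were ATATAA, a form of the TATA box, then CCAAT, the box bound by NF-Y, then CACCC, the box bound by KLF1, and last GATAA, which is part of the site bound by GATA1. The sequences around ATATAA, in capitals, are 30 bases long and written 5′ to 3′ on the coding strand.
Hba-a1, chr11:32283632-32283661 (plus strand): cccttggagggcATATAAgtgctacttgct
Hba-a2, chr11:32296449-32296478 (plus strand): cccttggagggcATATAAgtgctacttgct
Hbb-bs, chr7:103827941-103827970 (minus strand): ccagggcagagcATATAAggtgaggtagga
Hbb-bt, chr7:103813935-103813964 (minus strand): ccagcattgggtATATAAagctgagcaggg

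The first base of ATATAA lay 28, 31, 30 and 29 bases before the RefSeq start in Hba-a1, Hba-a2, Hbb-bs and Hbb-bt. Of 32851 promoters of the same length, 9.10% held these letters on either strand. The GENCODE genes begin elsewhere, and the spans of Hba-a1, Hbb-bs and Hbb-bt there take in this ATATAA. Each member also had CCAAT on the coding strand, 88, 91, 76 and 75 bases before the start, and 33.8% of promoters held it. CACCC was present in 2, 2, 1 and 3 places and GATAA in 1 place each, in 52.0% and 22.6% of promoters respectively, all on the coding strand. Hbb-bt had CCAAT on the other strand too, in 2 places. In the 4 members no match overlapped another. Over 250 bases the promoters of Hba-a1 and Hba-a2 matched at 97.6% of aligned positions with 0 mismatched bases, the rest being gaps, and those of Hbb-bs and Hbb-bt at 68.4%. A match of letters is a description and not a site in use, and no binding was measured in these livers.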

How the data were processed

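Bulk RNA-seq was made from 6 livers, 3 per group, after ribosomal RNA depletion and stranded library preparation, per the labels' protocols. The authors deposited CPM, read as such from values that are whole multiples of 1 step per library (100% of the low values tried, tolerance 0.1 read), with log2 fold changes and p-values of their own beside them, per the file headers. Their FDR was adjusted over 13192 genes. The submitters' processing notes name fastp, HISAT2, DESeq2 1.16.1 and GRCh38, a human build, although the gene IDs are mouse.

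Computed here with limma 3.58.1 in R 4.3.3 were differences and standard errors of log2(CPM + 1) over the 201 rows that passed the filter, with trended and robust variance moderation, tested on simulated data. Benjamini-Hochberg adjustment within a preselected table is circular, so no adjusted p is given. The variance moderation also draws on these preselected rows, so the standard errors depend on that selection too. The members and the 13 gene lists (192 symbols) were chosen with earlier results of these data known. The rule named the members, every list gene with a row and the 5 nearest profiles, of which 4 are given. Some genes of the table are not reported here, although they stay in every fit and count over the table. Every pair of libraries within a group differed beyond sampling noise, with a chi-square per gene of 30.5 or more. The labels tie no library to a named animal, so the spread between libraries is taken as that between livers.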

Additional observations from a re-analysis of the deposited data

How the results depend on the processing

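Within the table limma passed 111 of 201 rows at a Benjamini-Hochberg adjusted p under 0.05 (40 higher, 71 lower), a circular count that no statement on the globins rests on. It was 169 of 332 without the level filter, 82 with a pseudocount of 0.1 and 32 to 136 with 1 library left out, lowest without vehicle replicate 2. With the replicate number of the titles as a block it was 128. Same-numbered livers deviated together with correlations of 0.128, 0.149 and −0.105 for numbers 1 to 3, so the numbers were not taken as pairs. In a balanced design the block cannot move a difference of means, only its SE, which went from 0.66 to 0.60 for Hba-a1, 0.50 to 0.55 for Hba-a2, 0.57 to 0.60 for Hbb-bs and 0.55 to 0.53 for Hbb-bt.

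All globin differences stayed negative in every setting run. With 1 library left out, the log2 difference was −1.62 to −0.42 for Hba-a1, −1.72 to −1.19 for Hba-a2, −1.48 to −0.59 for Hbb-bs, −1.49 to −0.61 for Hbb-bt and −1.54 to −0.64 for the 4 summed (−1.07 with all libraries). For all but Hba-a2 the value nearest to 0 came without vehicle replicate 2 and the farthest without vehicle replicate 1. The alpha to beta ratio, gigantol minus vehicle, was −0.032 with all libraries, 0.0589 for Hba-a1 over Hbb-bs alone and −0.120 to 0.0447 with 1 library left out. The difference in the Hba-a1 share was 8.23 percentage points with all libraries and −2.26 without vehicle replicate 1. Count tests with edgeR and DESeq2, and TMM scaling, were planned and not run. The deposited unit is CPM, and although the steps between values gave each library's depth, the vehicle libraries had too few values of only a few reads to meet the criterion set for treating CPM as counts in such a test.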
